A study of Homo sapiens with 96 samples.

Results

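The 12 libraries described here, of 96 in the series, show what cycloheximide (CHX) did to mRNA levels in A375 melanoma cells whose BRAF and MEK kinases had been inhibited. They were taken by pretreatment, inhibitor and time alone, with no measured value entering the choice: 3 libraries with CHX and 3 with vehicle at 3 h, and the same at 5 h. A375 is an established human melanoma line with an activating BRAF mutation. The cells of all 12 had spent 18 h in 500 nM vemurafenib, a BRAF inhibitor, and 500 nM cobimetinib, a MEK inhibitor, a combination called MAPKi below. CHX was given at 100 µg/ml, and the vehicle was DMSO. None of the 12 received triptolide, the transcription inhibitor used elsewhere in the series. QuantSeq reads, which come from the 3′ ends of polyadenylated transcripts, were counted per gene. Levels are given as CPM, the reads of a gene as a share of all reads of its library, with libraries scaled by the trimmed mean of M values (TMM). Levels of cell type markers are shares of total counts without that scaling.

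Cycloheximide stops ribosomes during elongation, so that cells make almost no new protein while transcription and mRNA decay go on. Short-lived repressors, such as the inhibitor of NF-κB encoded by NFKBIA, are then not replaced, and mRNAs whose decay depends on translation can persist. Classical work with such blockers described superinduction, in which immediate-early mRNAs reach levels far above those seen when translation is intact. In BRAF-mutant melanoma the same immediate-early genes are driven by the ERK pathway, which MAPKi shuts down.

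Total counts of the 12 libraries ran from 4327790 to 9395869. Nothing in the labels says that the 3 libraries of a group came from separate cultures, so p-values measure the spread between these libraries, which may be technical. Among the 9 melanoma marker genes checked, none was at 0 in any group, and their summed level ran from 2899.9 to 4118.1 CPM, although MLANA, a melanosome protein gene, had at most 1.71 CPM. Summed keratinocyte markers ran from 130.3 to 183.6 CPM, of which KRT10 gave 127.5 to 182.8 CPM while KRT5 and KRT1 were at 0 in all 12 libraries. The epithelial list reached at most 21.1 CPM, the fibroblast list 9.33 CPM and those of leukocytes and endothelial cells 2.27 CPM. The vehicle library at 3 h with replicate number 2 stood apart: its correlation of log2 CPM with both others of its group was 0.971, against 0.98 to 0.987 for every pair in the other 3 groups. EEF1D, for instance, had 368 CPM in that library and at most 1.49 CPM in the other 11. Without that library, the rises and the falls of each gene list below each moved by at most 2 genes, except for the ribosomal protein, ZNF and long intergenic and antisense lists, whose counts are given beside them.

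Averaged over 3 and 5 h, CHX raised 2383 of 14948 genes tested (15.9%) and lowered 2082 (13.9%) at an adjusted p under 0.05 (edgeR quasi-likelihood test, Benjamini-Hochberg). Without the vehicle library that stood apart the counts were 2319 and 1944. Shares called in each gene list below are to be read beside 15.9% and 13.9%. Rises reached further than falls. Among the genes that rose, 488 changed more than 2-fold and 119 more than 4-fold, against 162 and 41 among those that fell, and the median change was 1.49-fold upward and 1.31-fold downward. The share of rises among all calls depended on the scaling: it was 53.4% with TMM and 71.8% when libraries were scaled to their total counts. In the CHX group labelled 0 h, which serves as the background of the comparison, 0 genes were called against vehicle by edgeR or by DESeq2, and 390 had an unadjusted p under 0.05.

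The 10 largest rises that had the same sign in all 6 differences between libraries of the same number were TNFAIP3, CXCL3, BIRC3, CXCL1, PDGFB, EDN1, NUAK2, IRF1, LOC101930665 and HES1. TNFAIP3 (GRCh38 chr6:137867214-137883314, plus strand) encodes A20, a ubiquitin-editing enzyme that ends NF-κB signalling. Its level was 1.83, 1.11 and 0.938 CPM in the vehicle libraries at 3 h and 57.5, 68.6 and 53 CPM with CHX. At 5 h it was 1.57, 0.268 and 0.605 CPM with vehicle and 76.3, 86.2 and 86.1 CPM with CHX. The groups were far apart at both times, with an average log2 change of 6.09 (standard error 0.28, adjusted p 4.03e-31). BIRC3 (chr11:102317484-102339403), which encodes a ubiquitin ligase that restrains cell death downstream of TNF receptors, went from 4.03 ± 1.77 to 43.2 ± 8.67 CPM at 3 h and from 2.63 ± 0.769 to 81.0 ± 8.70 CPM at 5 h (SD, n = 3). The chemokine mRNA CXCL3 (chr4:74036589-74038807) was at 0 counts in all 3 vehicle libraries at 5 h and at 6.18, 8.03 and 4.86 CPM with CHX, at least 15.1-fold higher when each vehicle library is set to a floor of 3 counts. CXCL1, a related chemokine, had an average log2 change of 4.21 (standard error 0.48, adjusted p 2.49e-11). Antisense genes overlap TNFAIP3, BIRC3, PDGFB and IRF1, and use of the strand in counting is not stated, so reads from the pairs cannot be told apart. The same limit holds for other genes named below, among them JUNB, CDKN1A, ID2, BHLHE40, NR1D1, DUSP6 and PHLDA1.

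IRF1 and HES1 were the transcription factor genes among these 10. IRF1 (chr5:132440440-132508719), an activator of interferon-responsive genes, had 12.2 ± 4.28 CPM with vehicle and 123.8 ± 11.6 CPM with CHX at 3 h, and 11.2 ± 3.43 against 218.9 ± 21.3 CPM at 5 h (SD, n = 3). HES1 (chr3:194136148-194138732), a repressor induced by Notch that also silences its own gene, had vehicle libraries at 8.65 to 23.0 CPM over both times and CHX libraries at 91.6 to 249.2 CPM. PDGFB and EDN1, which encode a growth factor chain and the precursor of the vasoconstrictor endothelin, were near the detection limit without CHX, and their libraries reached at most 8.39 and 11.7 CPM with it. PDGFB was not called by the DESeq2 test (log2 change 4.11, adjusted p 0.0804). NUAK2, a kinase gene, went from 2.90 ± 0.443 to 33.4 ± 4.31 CPM at 3 h (SD, n = 3), with an average log2 change of 3.98.

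**Figure D1:**
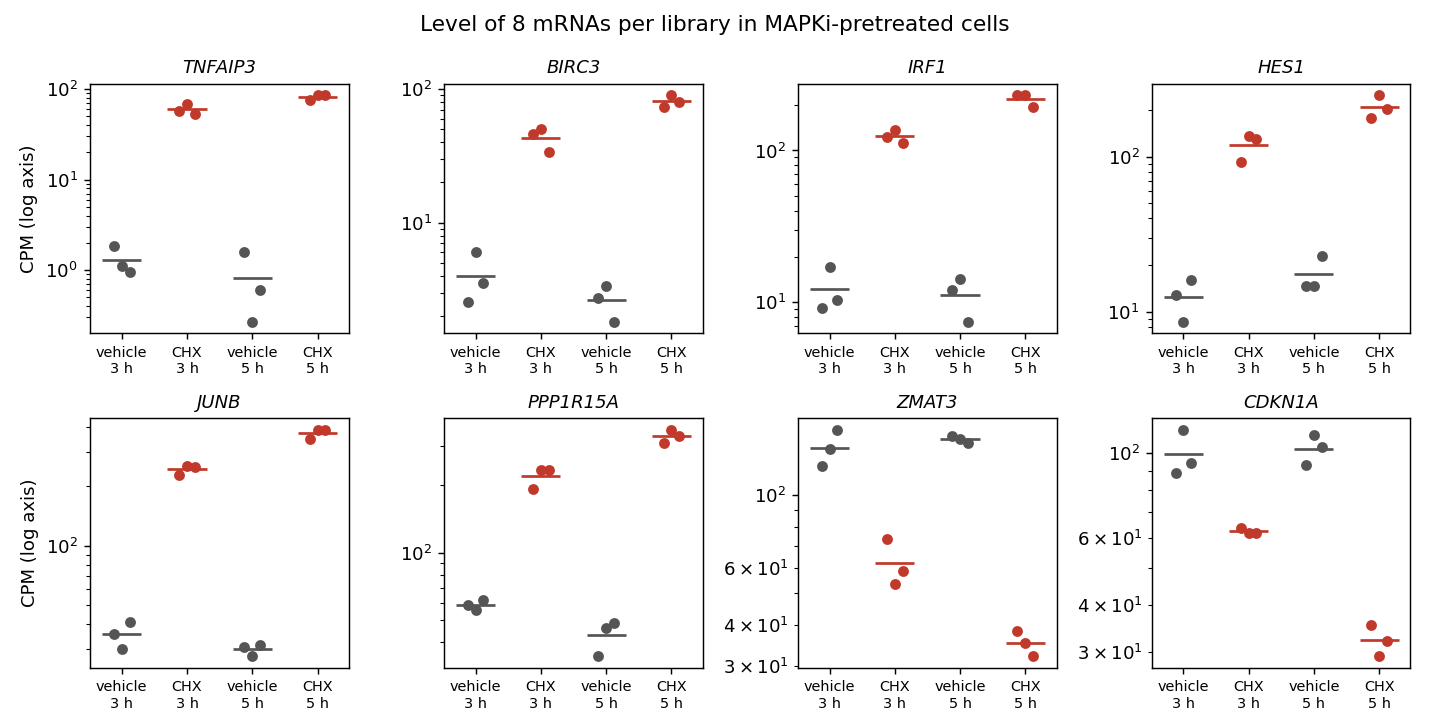
Level in CPM on a log axis of 8 mRNAs in the 12 libraries of MAPKi-pretreated cells, with grey points for vehicle, red points for CHX and bars for group means (n = 3). The CHX libraries of TNFAIP3, BIRC3, IRF1, HES1, JUNB and PPP1R15A lie above, and those of ZMAT3 and CDKN1A below, every vehicle library of the same time.

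Falls were smaller. Of the called genes matched to a gene model, 96.7% of those lower and 95.8% of those higher were protein-coding. The 10 largest falls by the same rule were MIR34AHG, LOC107986406, TRNC, REP15, LINC00260, LOC105372098, LOC101928421, ZMAT3, LOC105375119 and TRNS2. Of these, only ZMAT3 exceeded 20 CPM in any library. ZMAT3 (chr3:178960121-179072215), a p53 target that encodes an RNA-binding zinc finger protein, was at 122.9, 138.7 and 159.2 CPM with vehicle and 73.6, 53.4 and 58.6 CPM with CHX at 3 h. At 5 h the vehicle libraries held 151.9, 149.3 and 144.6 CPM and the CHX libraries 38.3, 35.1 and 32 CPM. The average log2 change was −1.63 (standard error 0.09, adjusted p 1.19e-26). MIR34AHG, the host transcript of the p53-induced miR-34a, fell by 2.62 on the log2 scale, although antisense and sense-strand genes overlap it. TRNC and TRNS2, mitochondrial tRNA genes, fell by 2.13 and 1.51, from levels of at most 17.5 CPM.

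Genes of NF-κB feedback and cytokine output rose together. Of 18 tested, 14 rose and 0 fell, against 15.9% of all genes called higher, and their median log2 change was 1.58 where that of all genes was −0.01. The same 14 of 18 was counted without the vehicle library that stood apart. NFKBIA, which encodes the IκBα inhibitor itself, was the most abundant of them, going from 101.0 to 983.5 CPM at 3 h and from 97.3 to 1010.8 CPM at 5 h (means, n = 3), a log2 change of 3.33 with an adjusted p of 1.44e-38. BCL3, a nuclear IκB-family coactivator, rose by a log2 change of 3.01, RELB and NFKB2, which encode subunits of the alternative pathway, by 1.75 and 1.51, and the adhesion molecule gene ICAM1 by 1.34. The 4 members not called were LIF (0.30), TNFAIP2 (0.11), NFKBIZ (−0.32) and IL11 (−0.33), given as log2 changes. NFKBIA, BCL3, RELB, NFKB2 and ICAM1 were named after their values were seen.

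Upstream of the transcription start, 6 of the 12 members that rose and have a RefSeq promoter entry (GRCh38.p14, 250 bases before to 50 after the start) held the letters GGG and TTCC with any 3 bases between them, a core of the κB site bound by NF-κB, on either strand. The share was 7.42% of the 11024 tested genes with a promoter entry and 6.47% of all 27305 promoters. Among genes with an entry it was 8.1% of the 1889 called higher and 7.39% of the 1610 called lower. For those that rose more than 2-fold it was 12.3% of 357. The list was made of NF-κB genes, so the share among its members does not bear on the response to CHX. The 6 matches are shown 5′ to 3′ on the strand of the gene, with the matching letters in capitals, because these are the matches among members that rose.
TNFAIP3 (chr6:137867188-137867217, plus strand): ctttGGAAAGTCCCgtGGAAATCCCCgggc
NFKBIA (chr14:35404811-35404840, minus strand): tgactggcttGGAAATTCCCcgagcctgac
BIRC3 (chr11:102317275-102317304, plus strand): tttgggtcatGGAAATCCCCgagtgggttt
CXCL1 (chr4:73869305-73869333, plus strand): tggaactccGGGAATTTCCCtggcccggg
CXCL3 (chr4:74038749-74038777, minus strand): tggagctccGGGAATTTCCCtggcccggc
NFKB1 (chr4:102501300-102501329, plus strand): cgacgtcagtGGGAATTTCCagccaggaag
TNFAIP3, CXCL1 and CXCL3 each held a pair of matches, which overlap in the chemokine genes. A match describes the letters in this window and was not tested as a binding site. The CRE letters TGACGTCA were found in 2 of the 19 immediate-early genes that rose and have an entry, JUND and MAFF, and in 3.16% of tested genes.

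The AU-rich nonamer TTATTTATT, a motif bound by decay factors in the 3′ untranslated region of many short-lived mRNAs, was found in 5 of the 9 largest rises with a coding model, against 10.0% of 12011 tested genes with one. Windows of 29 bases around the first nonamer are shown for 4 mRNAs, with the nonamer in capitals, as DNA letters of the GENCODE v44 transcript.
TNFAIP3: gtaattcactTTATTTATTttattacaaa
CXCL3: atgtcagttgTTATTTATTcaaattatct
CXCL1: agtcttctatTTATTTATTtattcattag
NUAK2: atttttatttTTATTTATTtatttatttt
Over the whole set of genes the contrast was slight. The nonamer was in 10.7% of the genes called higher, in 9.24% of those called lower and in 13.1% of those that rose more than 2-fold. With 3′ untranslated regions from 500 to under 1000 bases, 26.3% of 99 genes with the nonamer and 21.1% of 1971 without it were called higher, while from 2000 bases on the shares were 17.7% and 18.5%.

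Immediate-early genes, many of them transcription factor genes, are switched on within minutes of a stimulus. They rose in 25 of 28 cases (89.3%), with 0 falls and a median log2 change of 1.73. Without the vehicle library that stood apart, 26 rose. In 17 of the 28 every CHX library lay above every vehicle library at both times, which held for 9.9% of all genes. JUNB, an AP-1 subunit gene, had 35.8, 30 and 40.9 CPM with vehicle and 227.7, 254.4 and 252.4 CPM with CHX at 3 h. At 5 h the levels were 30.6, 27.4 and 31.4 CPM against 349.1, 388.0 and 384.8 CPM. The groups did not overlap, and the log2 change was 3.21 (standard error 0.16, adjusted p 7.49e-29). KLF10, a repressor induced by TGF-β, went from 6.89 ± 3.12 to 50.8 ± 11 CPM at 3 h and from 7.78 ± 1.36 to 121.0 ± 27.7 CPM at 5 h (SD, n = 3). EGR4 and EGR2 also passed the test but stayed below 1.5 CPM in every one of the 12 libraries, and EGR4 was not called by DESeq2 (adjusted p 0.646).

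The 3 members that were not called were EGR3, EGR1 and FOSL2, with log2 changes of 0.29, 0.21 and 0.21. EGR1 is the textbook immediate-early gene and stayed between 0.706 and 2.55 CPM in all 12 libraries. FOS, a partner of JUN in AP-1, rose from 17.8 to 42.4 CPM at 3 h (adjusted p 0.000137) and stood at 18.7 against 25.1 CPM at 5 h, where the test was not passed (adjusted p 0.196).

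Repressors of the ID, SMAD and Notch families rose in 9 of 11 cases with 0 falls (81.8% against 15.9% of all genes, median log2 change 1.27). ID1, which encodes a dominant-negative partner of helix-loop-helix factors and a direct BMP target, had 146.4, 108.3 and 146.8 CPM with vehicle and 638.7, 860.4 and 774.3 CPM with CHX at 3 h. ID2 had 125.7 ± 3.19 against 463.3 ± 49.6 CPM at that time (SD, n = 3), and SMAD7, the inhibitory SMAD, rose by a log2 change of 2.00. Among mRNA decay adaptors, 7 of 12 rose (58.3%). ZFP36L1 and ZFP36L2, which encode proteins that bring the deadenylase complex to AU-rich mRNAs, rose by log2 changes of 1.47 and 1.67, and BTG2, another deadenylase adaptor, by 1.41. YAP target genes rose in 9 of 13 cases (69.2%, median 1.12), led by NUAK2. CCN1, a matricellular protein gene of this group, spread widely among libraries, from 26.2 to 124.0 CPM with vehicle and from 145.8 to 448.6 CPM with CHX, without overlap of the groups.

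Feedback genes of the ERK pathway and genes of ETS transcription factors, taken as 1 list, rose in 7 of 16 cases (43.8%) with 0 falls. There was 1 fall without the library that stood apart, and the median log2 change was 0.44. SPRY2, an inhibitor of receptor tyrosine kinase signalling, went from 1.04 to 5.26 CPM at 3 h and from 0.694 to 5.63 CPM at 5 h (means, n = 3). DUSP6, the phosphatase of ERK, had 1.71, 1.33 and 1.41 CPM with vehicle and 8.49, 8.25 and 9.95 CPM with CHX at 3 h, a log2 change over both times of 1.93. PHLDA1, a gene induced by growth factors, rose by 1.28. Of 17 circadian clock genes, 8 rose (47.1%) and 1 fell (5.88%). BHLHE40, a clock repressor, rose by 2.98, NR1D1 and PER1, which encode further repressors of the loop, by 1.83 and 1.82, and DBP by 0.88. CRY1 was the member called lower (log2 change −0.37), a call that was lost with scaling to total counts (adjusted p 0.126).

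The stress transcripts of the ATF4 pathway moved in part. PPP1R15A, which encodes the GADD34 subunit that reverses eIF2α phosphorylation, had 58.8, 55.7 and 61.5 CPM with vehicle and 193.3, 233.6 and 233.5 CPM with CHX at 3 h. At 5 h it had 43.1 ± 7.49 against 331.7 ± 22.9 CPM (SD, n = 3), and the average log2 change was 2.42 (standard error 0.13, adjusted p 1.74e-27). ATF4 itself and DDIT3, the gene of the stress factor CHOP, rose by 1.31 and 1.82. Over the 24 ATF4 response genes tested, however, 7 rose (29.2%), 2 fell (8.33%) and the median was 0.08, near that of all genes. Enzymes and carriers of amino acid supply stood on the other side: the amino acid transporter SLC7A11 fell by 1.03 on the log2 scale and MTHFD2, a mitochondrial folate enzyme, by 0.45. Of 19 amino acid transporter genes, 1 rose (5.26%), SLC3A2 at 0.40, and 6 fell (31.6%). Of 18 cytosolic aminoacyl-tRNA synthetase genes, 6 fell (33.3%) and 2 rose (11.1%), FARSB (0.50) and FARSA (0.26). With scaling to total counts 2 fell and 3 rose, with a median of 0.01 in place of −0.08.

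Most ribosomal protein mRNAs fell, while most of the factors that build ribosomes rose. Of 80 ribosomal protein genes tested, 65 fell and 0 rose, where 13.9% of all genes were called lower, and the median log2 change was −0.31. Without the vehicle library that stood apart 61 fell, and with scaling to total counts 47 did, with a median of −0.22. The CHX libraries lay below all vehicle libraries at both times for 47 of the 80, and for 7.28% of all genes. RPL39 had 860.6, 743.6 and 854.8 CPM with vehicle and 611.2, 633.9 and 652.9 CPM with CHX at 3 h. RPS20, among the most abundant, had 3048.6 ± 39.1 CPM with vehicle and 2156.4 ± 101.9 CPM with CHX at 5 h (SD, n = 3), a log2 change over both times of −0.42 (standard error 0.04). By contrast, 28 of 44 ribosome biogenesis genes rose and 2 fell (63.6% and 4.55%, median 0.34). RRS1, DDX10, URB2 and POLR1C rose by log2 changes of 0.90, 0.77, 0.76 and 0.75, and the members that fell were NOP53 (−0.25) and NPM1 (−0.15), both lost with scaling to total counts (adjusted p 0.0591 and 0.269). Among 47 translation factor genes, 15 fell (31.9%) and 4 rose (8.51%), and with scaling to total counts 11 fell and 7 rose. PABPC1, the poly(A)-binding protein gene, went from 1425.7 to 1047.4 CPM at 3 h and from 1333.8 to 860.4 CPM at 5 h (means, n = 3), and EIF4EBP2, a repressor of cap-dependent initiation, fell by 0.77. The members that rose were EIF4A2 (0.63), EIF2B5 (0.47), EIF2B2 (0.30) and EIF3J (0.28). EEF1D is counted among the 15 but rests on the library that stood apart, without which its log2 change was −0.02.

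Of 21 ER chaperone and unfolded protein response genes, 13 fell (61.9%) and 0 rose, with a median log2 change of −0.33. PDIA6, a disulfide isomerase gene, had 628 to 642 CPM in the vehicle libraries 1 and 3 and 573 CPM in the other at 3 h, against 464 to 477 CPM with CHX, and fell by 0.46 on average. HERPUD1 and SEL1L, genes of ER-associated degradation, fell by 0.63 and 0.42. Cholesterol and fatty acid synthesis genes fell in 10 of 28 cases (35.7%) and rose in 1 (3.57%), MVK (0.38). INSIG1, the sterol-sensing retention protein gene, had 115.4, 127.9 and 130 CPM with vehicle and 44.2, 59.2 and 58.0 CPM with CHX at 5 h, and CYP51A1 and SCD fell by 0.73 and 0.66 over both times. Heat shock protein genes had 2 rises and 2 falls among 21, 9.52% in each direction, below the 15.9% and 13.9% of all genes. They were HSF2 (0.61) and HSPH1 (0.21) against CRYAB (−0.73) and DNAJB6 (−0.20). With scaling to total counts the list had 5 rises and 1 fall. Proteasome subunit genes had 1 rise and 5 falls among 33, 15.2% called lower against 13.9% of all genes, and with scaling to total counts the balance turned to 5 rises and 3 falls. The rise was that of PSMD5 (0.43), lost without the library that stood apart (adjusted p 0.0739).

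p53 target genes were divided, with 7 rises and 10 falls among 25 (28.0% and 40.0%). CDKN1A, which encodes the cell cycle inhibitor p21, had 88.8, 115.4 and 94.2 CPM with vehicle and 63.5, 61.7 and 61.8 CPM with CHX at 3 h. At 5 h it had 93.1, 111.6 and 104.0 against 35.3, 29.2 and 32.1 CPM. No library of one group overlapped the other, and the log2 change was −1.17 (standard error 0.10, adjusted p 4.13e-16). MDM2, the ubiquitin ligase that removes p53, fell by 0.85 and was named after its value was seen. PMAIP1, which encodes the death-promoting BH3-only protein NOXA, rose by a log2 change of 1.83. In the BCL2 family, 4 genes rose and 1 fell among 17, 23.5% and 5.88% against 15.9% and 13.9% of all genes. Besides PMAIP1, those that rose were the BH3-only genes BBC3 (1.11) and BMF (1.04) and the survival gene BCL2A1 (0.46). BID (−0.52) went in the other direction. The call for BCL2A1 was lost without replicate 3 (adjusted p 0.0507).

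Of 58 DNA replication genes, 24 rose (41.4%) and 2 fell (3.45%), RPA1 and TK1, at −0.24 and −0.18, and the median log2 change was 0.18. With scaling to total counts 29 rose and both falls were lost (adjusted p 0.226 and 0.448), and that of TK1 was also lost by the DESeq2 test (adjusted p 0.0669). MCM10, a replication initiation factor, had 12.3, 18.6 and 11.7 CPM with vehicle and 26.3, 31.5 and 22.4 CPM with CHX at 3 h, and 11.7, 13.5 and 9.78 against 23.1, 23.5 and 17.2 CPM at 5 h. The origin recognition genes ORC1, ORC6 and ORC2 rose by 0.73, 0.68 and 0.67. DNA repair genes had 21 rises and 3 falls among 66 (31.8% and 4.55%, median 0.23). The rises were led by REV3L, the catalytic subunit of polymerase ζ (0.79), RAD54B (0.77) and BARD1 (0.69), while POLH, ERCC1 and XRCC5 fell by 0.53, 0.24 and 0.15. With scaling to total counts, 31 repair genes rose and 1 fell, the calls for ERCC1 and XRCC5 being lost (adjusted p 0.123 and 0.39). Mitotic genes had 15 rises and 2 falls among 43 (34.9% and 4.65%). These counts were 29 and 1 with scaling to total counts, and 5 and 2 without replicate 1. CDC25A, the phosphatase that activates cyclin-dependent kinases, stood at 0.77, and BUB3 and SPC24 at −0.23 and −0.28. Of 39 replication-dependent histone genes, most of whose mRNAs lack a poly(A) tail and are poorly caught by this assay, 15 rose (38.5%) and 0 fell. H1-3 went from 5.50, 10.7 and 7.74 CPM to 37.6, 23.3 and 20.3 CPM at 3 h.

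SR protein and CLK kinase genes, which control splicing, rose in 12 of 19 cases (63.2%) with 0 falls. TRA2B had 191.3, 170.6 and 192.2 CPM with vehicle and 364.2, 349.0 and 354.5 CPM with CHX at 3 h, and CLK4, CLK1 and CLK3 rose by log2 changes of 1.45, 0.85 and 0.85. Among snoRNA host genes, many of whose spliced RNAs are known substrates of nonsense-mediated decay, 10 rose (45.5%) and 3 fell (13.6%) of 22. SNHG15, SNHG12, SNHG1 and SNHG17 rose by 1.84, 1.15, 1.05 and 0.99, while SNHG29, SNHG25 and SNHG16 fell by 0.33, 0.38 and 0.18, the last of them lost with scaling to total counts (adjusted p 0.21). Factors of nonsense-mediated decay and the exon junction complex rose in 7 of 15 cases (46.7%, and 4 cases without replicate 1), with SMG9 (0.59), SMG8 (0.54), UPF2 (0.44) and MAGOHB (0.37) in front. Among 379 genes named ZNF, mostly zinc finger repressors, 143 rose and 8 fell, 37.7% and 2.11% against 15.9% and 13.9% of all genes, and 138 and 7 without the library that stood apart. Long intergenic and antisense RNAs had 52 rises and 32 falls among 709 (7.33% and 4.51%), and 45 and 29 without that library. In the melanocyte lineage, SOX10, the master transcription factor gene, rose by 0.52, and the pigment genes PMEL and DCT fell by 0.99 and 0.45, among 7 genes tested. Both falls were lost without replicate 1 (adjusted p 0.0558 and 0.0794), and that of DCT also without replicate 3 (adjusted p 0.0652).

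**Figure D2:**
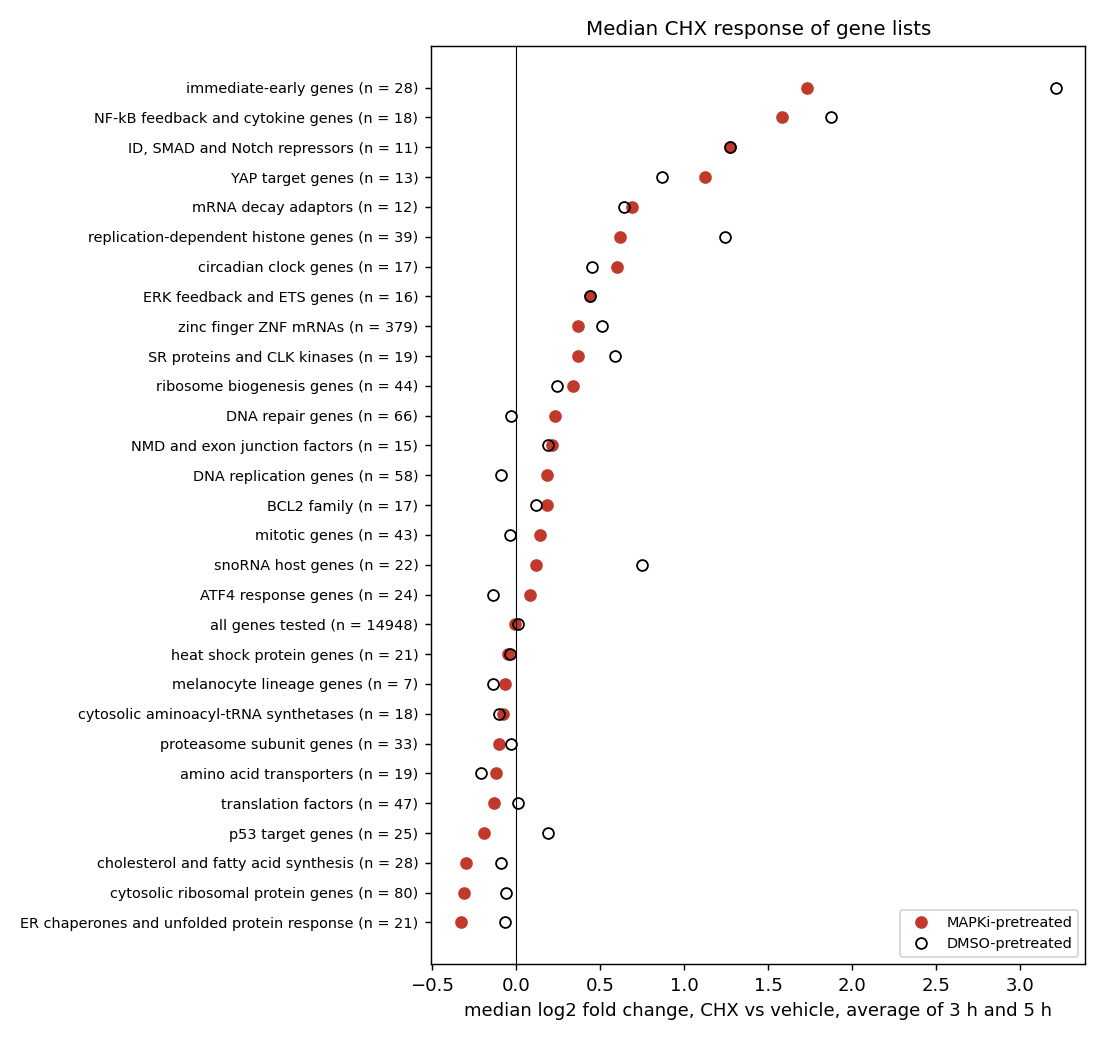
Median log2 fold change of CHX against vehicle, averaged over 3 and 5 h, for each gene list, with filled circles for MAPKi-pretreated and open circles for DMSO-pretreated cells and the number of genes tested in brackets. Immediate-early genes stand at 1.73 with MAPKi and 3.21 with DMSO, and cytosolic ribosomal protein genes at −0.31 and −0.06.

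The response grew from 3 to 5 h. At 3 h, 904 genes were higher (6.05%) and 586 lower (3.92%), and at 5 h 2024 (13.5%) and 1663 (11.1%), in comparisons that share no library. Of the genes higher at 3 h, 86.1% were also called higher at 5 h, and these made up 38.4% of those higher at 5 h. For lower genes the shares were 85.0% and 29.9%. Across all genes the log2 changes at both times had a Pearson correlation of 0.438, and across the genes called in the average one of 0.811. These describe genes, which are not independent replicates. Among genes called higher in the average, 77.5% had the larger change at 5 h, where their median log2 change was 0.68 against 0.47 at 3 h. The share of rises among the calls was 60.7% at 3 h and 54.9% at 5 h with TMM, and 83.8% and 70.6% with scaling to total counts.

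The difference between times itself passed the test for few genes. The 5 h change exceeded the 3 h change, as a signed log2 value, in 50 genes (0.334%) and lay below it in 22 (0.147%), and 47 and 19 of these were called higher and lower in the average. MAFF, a small partner of bZIP factors, had vehicle levels of 16, 20.9 and 22.6 CPM and CHX levels of 46.4, 32.3 and 40.3 CPM at 3 h. At 5 h the vehicle libraries held 12.7, 10.0 and 11.8 CPM and the CHX libraries 66.5, 60.6 and 71.9 CPM, so that vehicle libraries were lower and CHX libraries higher than at 3 h. Its log2 change was 1.52 larger at 5 h (standard error 0.26, adjusted p 0.000196). SLC25A25, a mitochondrial carrier gene, NEDD9, a scaffold of focal adhesions, GALNT18 and PER1 had differences of 1.52, 1.44, 1.44 and 1.42. In the other direction CDKN1A went from a log2 change of −0.67 at 3 h to −1.68 at 5 h, a difference of −1.01 (adjusted p 0.00319). SGK1, a kinase gene induced by serum and glucocorticoids, had log2 changes of 0.06 and −1.10, KAT14 of 0.51 and −0.79, and MAP3K6 of 0.13 and −0.80. The call for SGK1 was lost without the vehicle library that stood apart (adjusted p 0.119). Those for GALNT18 and MAP3K6 were lost in a fit of the 12 libraries only (adjusted p 0.169 and 0.135), and those for KAT14 and MAP3K6 without the filter on low counts (adjusted p 0.0628 and 0.229). The fifth name, AGPAT5_1, is a repeat entry with 17.9 CPM in a single vehicle library at 5 h and at most 4.97 CPM elsewhere in the 12. The number of genes with a called difference fell to between 4 and 20 when any replicate number was left out. PER1, CDKN1A, KAT14, SGK1, MAP3K6 and AGPAT5_1 lost the call whichever number was left out (CDKN1A with adjusted p of 0.0744 to 0.151). SLC25A25 lost it without replicate 1 or 2, and GALNT18 without 1 or 3. MAFF lost it without replicate 3 (adjusted p 0.0559), and NEDD9 without replicate 1 (adjusted p 0.0752).

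**Figure D3:**
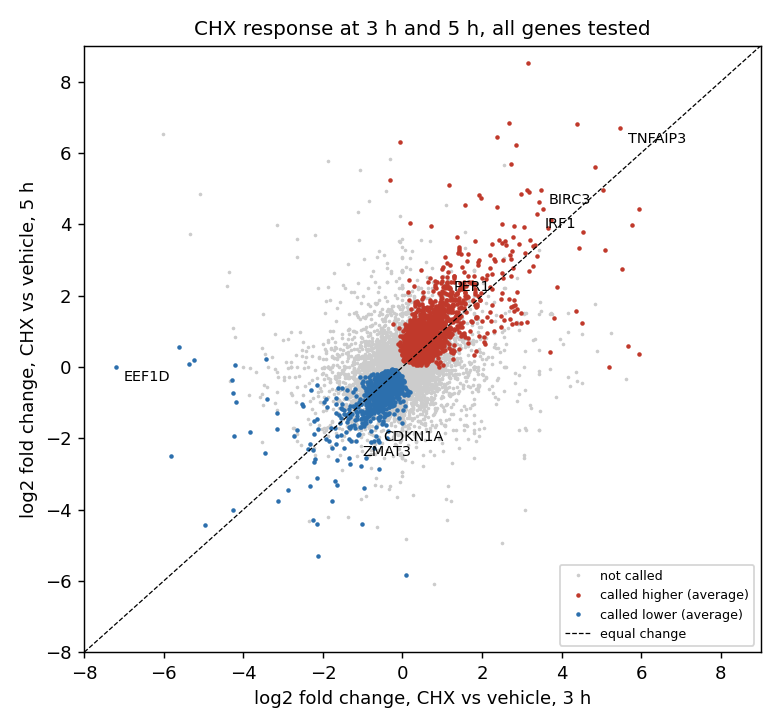
Log2 fold change of CHX against vehicle at 3 h (horizontal) and 5 h (vertical) for all 14948 genes tested, coloured by the call in the average of both times, with equal change as a dashed line. TNFAIP3 stands at 5.48 and 6.69, CDKN1A at −0.67 and −1.68, and EEF1D at −7.19 and 0.01, the last through a single vehicle library.

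The same comparison in cells kept for 18 h in DMSO instead of MAPKi gives the setting in which ERK is active, and it shares no library with the 12. There, 2733 genes rose (18.3%) and 2011 fell (13.5%) with CHX. Of the genes that rose under MAPKi, 60.6% also rose in DMSO-pretreated cells, and these were 52.8% of the latter. The shares for falls were 43.1% and 44.7%. The difference between the changes was called for 1678 genes, with 693 (4.64%) more positive and 985 (6.59%) more negative under MAPKi. The split between those directions depended on the scaling: 41.3% were positive with TMM, 49.8% with DESeq2 size factors and 76.1% with total counts, which shifted the median difference of all genes from −0.04 to 0.10 on the log2 scale.

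Immediate-early genes carried the largest negative differences. Of the 28 tested, 16 had a smaller change under MAPKi and 1, CCN2, a larger one, where 6.59% and 4.64% of all genes were more negative and more positive. Their median log2 change was 1.73 against 3.21. Both counts moved by at most 1 gene under either other scaling (15 or 16 smaller, 1 or 2 larger). FOS (chr14:75278826-75282230) had 2.70 to 7.56 CPM in the 6 vehicle libraries after DMSO, and CHX brought it to 425.2, 389.9 and 432.2 CPM at 3 h and to 637.2, 609.4 and 774.3 CPM at 5 h. Under MAPKi its vehicle level was higher, 11.1 to 25.5 CPM, and its CHX level reached at most 44.7 CPM. The log2 change was 6.80 in DMSO and 0.82 under MAPKi, a difference of −5.98 (standard error 0.26, adjusted p 1.98e-31). EGR1 (chr5:138465479-138469303) rose in DMSO-pretreated cells from between 64.6 and 120.6 CPM to between 4044 and 5646 CPM, and did not pass the test under MAPKi (difference −5.62). FOSB, which overlaps ERCC1 on the other strand, had a log2 change of 6.16 in DMSO and 1.70 under MAPKi. JUN, ATF3 and IER2 rose under both, with differences of −3.05, −3.50 and −2.04. JUNB rose by 4.17 and 3.21, a difference of −0.96, and for KLF10 the difference of −0.28 was not called (adjusted p 0.695).

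NF-κB genes were different in this respect. Of the 18, 3 had a larger change under MAPKi, TNFAIP3, BIRC3 and ICAM1, and 1, IL11, a smaller one. Among all genes 4.64% were more positive and 6.59% more negative. With scaling to total counts 5 of the 18 were larger. As a list, 16 of the 18 rose in DMSO with a median log2 change of 1.87, against 14 and 1.58 under MAPKi. TNFAIP3 reached similar CHX levels after both pretreatments, 60.0, 65.9 and 69.5 CPM at 3 h in DMSO-pretreated cells against 57.5, 68.6 and 53 CPM under MAPKi. Its vehicle level was 5.51 to 10.9 CPM in DMSO and 0.268 to 1.83 CPM under MAPKi, and the difference in log2 change was 2.97 (adjusted p 9.93e-10). NFKBIA rose by 3.33 under MAPKi and 3.17 in DMSO, a difference of 0.16 that was not called (adjusted p 0.605). Of the 12 mRNA decay adaptor genes, 1 had a more positive change under MAPKi and 3 a more negative one (2 and 2 with total counts). Their median difference was −0.35. ZFP36L2, of that list, rose under MAPKi and had a log2 change of −0.08 in DMSO, a difference of 1.75.

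**Figure D4:**
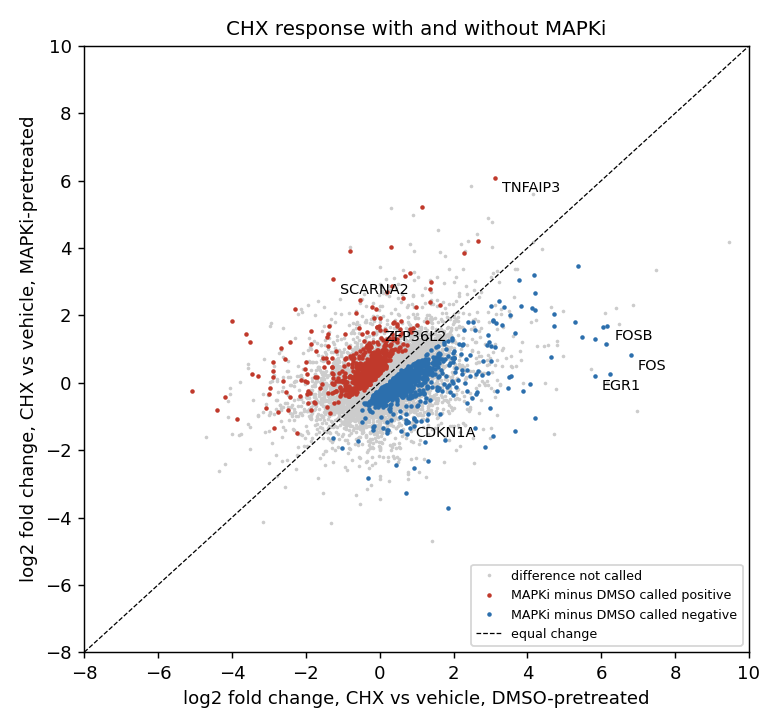
Log2 fold change of CHX against vehicle, averaged over 3 and 5 h, in DMSO-pretreated (horizontal) and MAPKi-pretreated cells (vertical) for all 14948 genes tested, with colours for genes whose difference was called and equal change as a dashed line. FOS, FOSB and EGR1 lie far to the right at 6.80, 6.16 and 5.82 in DMSO, and TNFAIP3 lies above the line at 3.12 and 6.09.

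Some genes differed in direction between the pretreatments, and several lists shifted to one side. CDKN1A rose in DMSO-pretreated cells, from 41.9 to 52.4 CPM with vehicle to 72.1 to 102.5 CPM with CHX at 5 h, and fell under MAPKi, a difference of −1.93 (adjusted p 3.32e-18). INSIG1 and HMGCS1 of the sterol pathway rose by 0.72 and 0.78 in DMSO and fell by 0.92 and 0.46 under MAPKi, with differences of −1.64 and −1.24. In DNA replication genes the shift went the other way. In DMSO 4 rose and 10 fell, where 18.3% and 13.5% of all genes did, with a median log2 change of −0.09. Of the 58, 19 had a more positive change under MAPKi and 0 a more negative one, against 4.64% and 6.59% of all genes. That count was 21 with DESeq2 size factors and 29 with total counts. MCM10 stood at 71.4 to 87.9 CPM in the vehicle libraries after DMSO and at 9.78 to 18.6 CPM under MAPKi, and CHX changed it by −0.14 in the former and 0.91 in the latter (difference 1.05, adjusted p 1.06e-06). Ribosomal protein genes fell in 19 and rose in 2 of 80 cases in DMSO, and 30 had a more negative change under MAPKi, a count that fell to 22 with DESeq2 size factors and to 7 with total counts. Of 22 snoRNA host genes, 11 had a more negative change under MAPKi and 0 a more positive one (9 and 0 with total counts). SNHG29 illustrates it, with a log2 change of 0.44 in DMSO and −0.33 under MAPKi. EIF4A2 rose by 1.98 in DMSO and 0.63 under MAPKi.

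**Figure D5:**
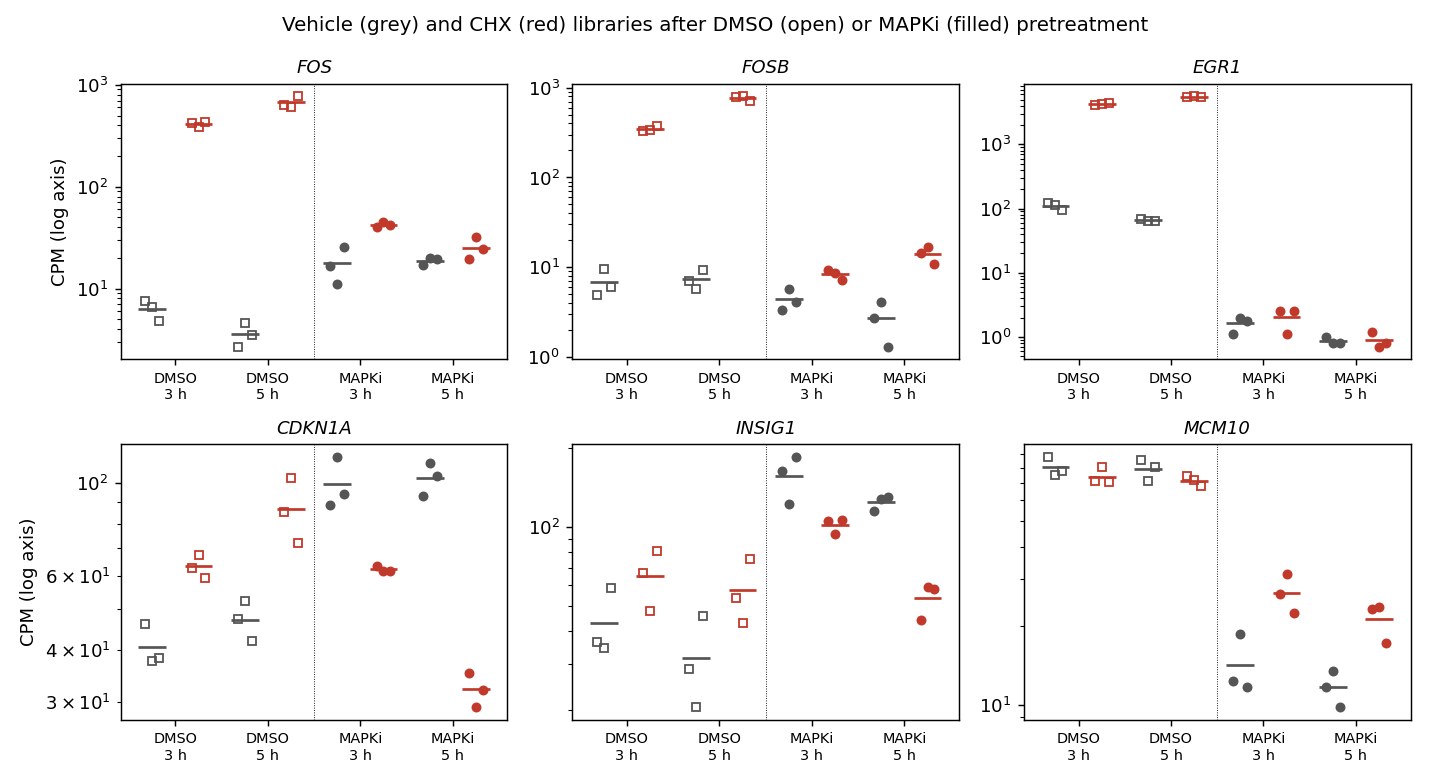
Level in CPM on a log axis of 6 mRNAs in the vehicle (grey) and CHX (red) libraries at 3 and 5 h, with open squares after DMSO, filled circles after MAPKi and bars for group means (n = 3). FOS, FOSB and EGR1 reach at most 44.7, 16.6 and 2.55 CPM under MAPKi, CDKN1A and INSIG1 fall under MAPKi only, and MCM10 starts lower under MAPKi and rises.

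The other features compared were properties of the gene models. Of the 14948 genes tested, 12011 (80.4%) had a complete coding model. Genes with a single exon were called higher in 29.8% of 258 cases and lower in 5.43%, and genes with 2 to 4 exons in 21.9% and 13.5% of 2200. The shares were 15.9% and 17.9% with 5 to 9 exons, 18.2% and 16.3% with 10 to 19, and 17.9% and 14.6% with 20 or more, so that they did not fall steadily with exon number. Genes that rose more than 2-fold had a median of 5 exons, against 9 for all genes, and of 33.4% codons ending in A or T, against 42.1%. Coding sequences had a median of 536 codons among genes that rose and 401 among those that fell. The 985 genes with a more negative change under MAPKi than in DMSO, of which 372 were called lower and 196 higher under MAPKi, had a median of 51.3% codons ending in A or T and 6.27% GAA and GAT codons together, and the 693 with a more positive change, of which 345 were called lower in DMSO, 37.1% and 4.71%, around medians of 42.1% and 5.09% for all genes. These classes depend on the scaling, with 490 and 1558 genes under total counts, for which the medians were not computed. For genes that fell more than 2-fold, only 46.9% had a coding model, so no value is drawn from them.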

How the data were processed

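The deposited values are raw counts: whole numbers of reads for each gene in each library, not normalized. Per their methods and processing notes, reads were trimmed with fastp 0.20.1, mapped to GRCh38 with HISAT2 2.2.1 and counted with HTSeq 0.13.5; libraries were made from 500 ng of RNA. Strand use is not stated and no molecular identifiers are described. The floor of 3 counts covers counting error only, while SDs and standard errors include the spread between libraries.

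Counts were fitted with edgeR 4.0.16 in R 4.3.3 over all 96 libraries, 1 mean for each of 32 groups, genes kept by filterByExpr and scaled by TMM. Contrasts were tested two-sided and adjusted over all genes by Benjamini-Hochberg, with calls at 0.05. On simulated counts, 72% to 100% of genes changed by 1 or 2 on the log2 scale in either direction were called. Within the 12 libraries, chi-square per degree of freedom was 4.36 to 12.2 over 12 pairs, so none was a copy.

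The members and gene lists were chosen with earlier results of these data known. Named genes were the 10 largest called rises and falls with the same sign in all 6 same-numbered differences, a mean of at least 5 CPM in a group and no repeat suffix, up to 4 called members per list, any list count of 5 or fewer, and 5 per direction in the contrasts of times and of pretreatments. Other names were chosen after their values were seen. Gene models came from GENCODE v44 (13196 genes matched by symbol and 138 by an older one) and promoters from RefSeq GRCh38.p14. Alternatives included DESeq2 1.42.0, other scalings, no filter, a replicate block and leaving out libraries. Sequence windows are printed for a selection of genes, and an item is not reported here.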

Additional observations from a re-analysis of the deposited data

Results flagged for a closer look

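Each of the following differs between times or between pretreatments by a test of the difference itself, in the same fit over all genes. Between 5 and 3 h under MAPKi, 72 genes differed. The differences in log2 change were 1.42 for PER1, 1.52 for MAFF, 1.52 for SLC25A25, 1.44 for NEDD9, 1.44 for GALNT18, −1.01 for CDKN1A, −1.31 for KAT14, −1.16 for SGK1 and −0.93 for MAP3K6. AGPAT5_1 had −7.42, with 17.9 CPM in 1 vehicle library at 5 h. Every difference between times named here lost its call when at least 1 of the replicate numbers was left out.

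Between MAPKi and DMSO pretreatment, 1678 genes differed. Among genes named for a large rise under MAPKi, the differences were 2.97 for TNFAIP3, 1.57 for BIRC3, 1.55 for IRF1 and −1.9 for LOC101930665. Among those named for a large fall they were −2.88 for LOC107986406, −0.92 for REP15, −1.13 for LOC105372098 and −0.38 for ZMAT3. Among genes with a mean of at least 5 CPM in a group, the largest positive differences belonged, besides TNFAIP3, to SCARNA2 (4.32), a small Cajal body RNA, BLID (3.28), PDZRN3-AS1 (2.68) and LOC107985000 (2.67). SCARNA2 rose under MAPKi to between 3.73 and 5.66 CPM, whereas BLID, PDZRN3-AS1 and LOC107985000 were not called under MAPKi and fell with CHX after DMSO. The largest negative differences were those of FOS (−5.98), EGR1 (−5.62), LINC02158 (−4.99), FOSB (−4.46) and LOC105370363 (−4.39).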

How the results depend on the processing

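For the named genes, 123 of 186 results kept their direction and side of the threshold under every alternative, and 4 reversed, all when a replicate number was left out. Leaving out a replicate number gave average log2 changes from −4.36 to 0.35 for EEF1D, −3.15 to 0.47 for AGPAT5_1, −0.09 to 3.84 for BLID and −0.08 to 0.48 for EGR1, and the last 3 were not called with all libraries. The cause was not tested. Leaving out each replicate number gave 689 to 939 calls at 3 h, 2166 to 2698 at 5 h, 4 to 20 for the difference between times, 767 to 1153 for that between pretreatments and 0 to 1 at 0 h, where no low-count filter gave 8. Without the vehicle library at 3 h that stood apart, 1294 genes were called at 3 h, 3711 at 5 h, and 60 and 1795 in the differences between times and between pretreatments. DESeq2 called 128 genes in the difference between times.

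Whether the replicate numbers pair the libraries was not settled, since same-numbered libraries were alike in some pairs of groups and not in others. Deviations of same-numbered libraries from their group means correlated from −0.529 to 0.534, and 9 of 18 pairs exceeded 0.1, while 7 of 12 libraries correlated best with one of their own number. The fit with a replicate block called 4663 genes in the average, 1675 at 3 h, 3861 at 5 h, 99 and 1865 in the differences between times and pretreatments and 0 at 0 h, and changed the call of none of the 186 gene results. CPM are shares of a library, so a change in total mRNA per cell is not measured. The fits with the 12 libraries only and without 1 vehicle library were chosen after seeing the data.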
